A study of Mus musculus with 78 samples.

Results

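Described here are 45 genes of DNA replication and mitosis in cartilage tissue engineered from mouse induced pluripotent stem cells and exposed to interleukin-1beta (IL-1beta) or tumour necrosis factor alpha (TNF-alpha), inflammatory cytokines found in arthritic joints. The members were picked by gene name, as a list drawn up with earlier results of these data known, out of 52459 named genes in the deposited mRNA table, and all 45 passed the low-count filter that kept 18857 genes. The tissue was left untreated, or received 1 ng/mL IL-1beta or 20 ng/mL TNF-alpha, and was sampled at 4, 12, 24 and 72 h; untreated tissue was also sampled at 0 h. Each of these 13 groups has 3 mRNA libraries (a, b and c), except untreated 0 h, which has 2 here. Every group, the controls included, is the same engineered tissue; the labels name no stem cell line, strain, culture age or number of tissues per library.

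DNA is copied once per division: in G1 phase, Cdc6 and Cdt1 load the MCM helicase onto origins. In S phase, cyclin-dependent kinases then fire those origins while the clamp Pcna, the polymerases and the enzymes of deoxynucleotide synthesis extend the forks. In G2 phase and mitosis, cyclins A and B with Cdk1, the Polo and Aurora kinases, motor proteins and centromere proteins condense and part the chromosomes. Genes of the first set are classic targets of E2F transcription factors, which the retinoblastoma protein family restrains. Genes of the second set are classic targets of the DREAM and MuvB complexes, B-Myb and Foxm1, which act through a short promoter element called the CHR. Chondrocytes of mature cartilage divide rarely, whereas those of growing and of engineered cartilage still cycle.

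The 38 libraries held between 11163263 and 68655350 counts. The column labelled untreated 0 h b was left out because its values do not follow the gene names: it held 220180 counts and correlated over genes at 0.182 and 0.183 with the other libraries of its group. Levels are CPM, counts scaled to the TMM-adjusted library total, and CPM per kilobase of gene length where genes are compared with each other. Log2 fold changes are given ± standard error (SE). A gene is called when the adjusted p of edgeR's quasi-likelihood test, by Benjamini-Hochberg over 18857 genes, is under 0.05. The labels do not say whether libraries of a group came from separate cultures, so p-values reflect the spread among these libraries, which may be technical. Of the 18857 genes, 10 lay higher and 24 lower in all 8 libraries of untreated 0 h, untreated 4 h and IL-1beta 4 h than in all the other 30, 10 of the lower ones by a gap of over 4-fold; no member was among them. At 4 h, the comparisons of TNF-alpha with control and of IL-1beta with TNF-alpha both cross that division. In those comparisons the division and the cytokine cannot be told apart. Among markers of cell types, the 8 of chondrocytes summed to between 15440 and 155700 CPM, the 8 of pluripotent cells to between 1.605 and 3.231 CPM, nearly all Sox2, with Pou5f1 at 0 in 31 libraries and Zfp42 in 34, and the 7 of endothelium to at most 2.138 CPM. Sums over all libraries were 8457 to 38450 CPM for the 7 fibroblast markers, mostly collagens that other mesenchymal cells also make, 11.74 to 62.49 for the 8 leukocyte markers, 40.68 to 118.5 for the 6 neural markers, at most 1.034 for the 6 muscle markers and at most 5.149 for the 6 hepatic and epithelial markers.

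Promoter sequences were taken from a RefSeq table (build GRCm38.p6), which by gene symbol held 35 promoters of 34 members, Mcm7 having 2. Not matched were Aurkb, Ccna2, Ccnd1, Ccnd2, Ccne2, Foxm1, Gins1, Gins2, Kif20a, Mcm4 and Tpx2. In the 250 bases before the transcript start that the table uses, on both strands, an E2F motif (TTTCCCGC, TTTCGCGC, TTTGCCGC or TTTGGCGC) was found in 8 of the 35, or 22.9%, against 1.86% of all 32851 promoters. A CHR (TTTGAA or TTCGAA) was found in 11, or 31.4%, against 17.1%, and the CCAAT box, bound by NF-Y, in 28, or 80%, against 33.8%. Of the 10 promoters of the chromosome, spindle and checkpoint group, 5 held a CHR and 0 an E2F motif; of the 8 of the licensing and helicase group, 4 held an E2F motif and 2 a CHR. Matches of these short words are descriptions of the letters, and some overlap. The 200 bases before the start are printed for 8 members whose values carry the results below, 5′ to 3′ on the gene's strand, with E2F and CHR matches in capitals. First come 2 helicase genes with E2F motifs, then Cdk1 with both, then 4 mitotic genes with CHRs, and last Tyms, which held none of the 3 motifs. Promoters with neither an E2F motif nor a CHR numbered 19 of the 35, and of these only that of Tyms is printed. The printed set is thus not typical of the members. The windows are chr8:75109309-75109508 (plus strand) for Mcm5, chr1:128359706-128359905 (minus strand) for Mcm6, chr10:69352913-69353112 (minus strand) for Cdk1, chr7:135716380-135716579 (minus strand) for Mki67, chr11:99024190-99024389 (minus strand) for Top2a, chr4:118437344-118437543 (minus strand) for Cdc20, chr19:37376182-37376381 (plus strand) for Kif11 and chr5:30073626-30073825 (minus strand) for Tyms.
Mcm5: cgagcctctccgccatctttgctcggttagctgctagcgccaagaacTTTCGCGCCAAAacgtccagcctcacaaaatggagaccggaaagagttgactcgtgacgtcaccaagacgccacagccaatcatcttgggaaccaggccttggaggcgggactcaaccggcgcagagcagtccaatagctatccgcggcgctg
Mcm6: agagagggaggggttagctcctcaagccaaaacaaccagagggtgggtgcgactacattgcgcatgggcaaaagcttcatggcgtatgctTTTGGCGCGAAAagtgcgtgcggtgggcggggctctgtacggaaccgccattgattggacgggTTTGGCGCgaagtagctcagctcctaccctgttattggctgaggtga
Cdk1: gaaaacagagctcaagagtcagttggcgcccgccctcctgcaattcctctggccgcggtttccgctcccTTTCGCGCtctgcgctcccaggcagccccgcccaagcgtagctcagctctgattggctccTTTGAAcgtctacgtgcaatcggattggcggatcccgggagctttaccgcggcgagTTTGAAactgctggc
Mki67: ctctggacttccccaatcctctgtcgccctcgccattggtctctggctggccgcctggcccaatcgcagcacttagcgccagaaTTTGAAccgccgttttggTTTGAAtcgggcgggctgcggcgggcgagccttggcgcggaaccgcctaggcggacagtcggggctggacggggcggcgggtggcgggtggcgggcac
Top2a: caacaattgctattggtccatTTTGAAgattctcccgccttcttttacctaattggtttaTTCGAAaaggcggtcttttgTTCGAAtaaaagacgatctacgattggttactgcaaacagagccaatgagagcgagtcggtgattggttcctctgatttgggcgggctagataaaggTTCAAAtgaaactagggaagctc
Cdc20: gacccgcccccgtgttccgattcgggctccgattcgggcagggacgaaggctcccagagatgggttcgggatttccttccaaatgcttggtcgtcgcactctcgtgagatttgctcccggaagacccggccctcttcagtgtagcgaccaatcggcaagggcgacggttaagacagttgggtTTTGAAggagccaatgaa
Kif11: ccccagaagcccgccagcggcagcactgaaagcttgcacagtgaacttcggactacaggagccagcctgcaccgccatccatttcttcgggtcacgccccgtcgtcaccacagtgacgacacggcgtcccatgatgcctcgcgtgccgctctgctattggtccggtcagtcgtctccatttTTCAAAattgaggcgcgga
Tyms: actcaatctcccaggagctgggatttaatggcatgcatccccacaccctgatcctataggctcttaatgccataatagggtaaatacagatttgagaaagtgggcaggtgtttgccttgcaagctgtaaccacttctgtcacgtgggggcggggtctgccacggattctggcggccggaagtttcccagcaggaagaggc

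Measured per kilobase and as the median over 38 libraries, the D-type cyclins Ccnd2 and Ccnd1, which open G1, were the highest members at 22.4 and 17.04 CPM per kb. Next came the helicase subunit Mcm6 at 10.53, Pcna at 9.93 and Mcm3 at 8.22 CPM per kb. The lowest were the transcription factor Foxm1 at 0.476 and the licensing factor Cdc6 at 0.335 CPM per kb. Over all libraries Cdk2 moved least, from 16.3 to 24.4 CPM, and Ccnb2 most, from 0.903 to 6.53 CPM, a ratio of 7.23 between its highest and lowest library. RefSeq places another gene over some of the span of 19 members, a protein-coding one for 13, among them Cdk2 (Pmel), Cdc20 (Elovl1), Ccna2 (Exosc9), Ccne2 (Ints8), E2f1 (Necab3), Ccnd1 (LTO1) and Mcm7 (Ap4m1). The strand setting of the counting is not stated, so reads in those overlaps cannot be assigned with certainty.

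In untreated tissue the summed level of the members was highest at 0 h, 21 members fell by 4 h, and 14 rose from 12 to 24 h. Between 0 and 4 h, 21 of 45 members were called lower (46.7%) and the other 24 were not called, where 10.2% of all genes were called lower and 10.2% higher. The median log2 fold change was -0.43 over the members and -0.013 over all genes. The fibroblast markers went from 34900 to 38450 CPM at 0 h to 25650 to 28220 CPM at 4 h. Leukocyte markers went from 25.1 to 31.49 CPM to 22.47 to 24.93 CPM. The chondrocyte markers overlapped, at 90010 to 124100 CPM and 111800 to 116300 CPM. Their part in the members' result was not tested. Rrm2, the regulated subunit of ribonucleotide reductase, stood at 32.6 and 39.7 CPM at 0 h and at 18.0, 21.1 and 18.5 CPM at 4 h (log2 fold change -0.91 ± 0.11, edgeR adjusted p = 4.68e-07). Kif11, the mitotic kinesin that pushes spindle poles apart, stood at 13.7 and 16.2 CPM and then at 8.63, 9.80 and 8.500 CPM (log2 fold change -0.74 ± 0.14, edgeR adjusted p = 0.000255). Top2a, the topoisomerase that untangles replicated chromosomes, stood at 47.7 and 50.9 CPM and then at 30.8, 32.6 and 27.9 CPM (log2 fold change -0.69 ± 0.14, edgeR adjusted p = 0.000324). In each of these genes both libraries at 0 h lay above all 3 at 4 h. Only 5 of the 21 calls (Birc5, Kif11, Mcm2, Rrm2 and Top2a) held whichever library was left out. Leaving out either library at 0 h leaves no replicate there. Without untreated 4 h c, 10 members were called, and the share of all genes called in that fit is not given here.

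From 12 to 24 h of culture without cytokine, 14 members rose (31.1%) and 1 fell, where 10.2% of all genes were called higher and 11.5% lower. With library totals alone in place of TMM, those shares of all genes were 21.5% and 6.38%, and 23 members were called higher. Over the same step the chondrocyte markers went from 108200 to 130200 CPM at 12 h to 69350 to 75250 CPM at 24 h. The fibroblast markers went from 28170 to 34490 CPM to 22270 to 25820 CPM. Their part in the result was not tested. Ccne2, a cyclin E that drives entry into S phase, stood at 9.42, 8.44 and 6.89 CPM at 12 h and at 13.4, 15.4 and 14.00 CPM at 24 h (log2 fold change 0.78 ± 0.13, edgeR adjusted p = 5.04e-05). Prim1, the catalytic subunit of primase, stood at 5.40, 4.76 and 4.76 and then at 7.34, 8.90 and 7.47 CPM (log2 fold change 0.66 ± 0.13, edgeR adjusted p = 0.000289). Bub1, a spindle checkpoint kinase, stood at 2.92, 2.29 and 3.05 and then at 5.03, 5.90 and 6.26 CPM (log2 fold change 1.05 ± 0.22, edgeR adjusted p = 0.000742). For all 3 genes every 24 h library lay above every 12 h library. Mki67, the proliferation marker Ki-67, rose as well, from 21.2, 17.6 and 16.7 to 25.9, 32.3 and 27.1 CPM (log2 fold change 0.61 ± 0.15, edgeR adjusted p = 0.00372), and so did Rrm2 and Kif11, by 0.62 and 0.56 on the log2 scale. The single member called lower was Cdk2 (-0.23 ± 0.071), whose call was lost in 5 of its 6 fits with 1 library left out.

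By 72 h the untreated tissue differed from that at 12 h in both directions. Here 4 members were called higher and 7 lower, below the shares over all genes, 18.7% higher and 18.3% lower; with library totals alone the members split 7 to 6 and all genes 25.1% to 13.3%. Prim1 and the clamp loader subunit Rfc4 were higher at 72 h, by 0.68 ± 0.13 and 0.82 ± 0.17 on the log2 scale. The licensing genes Mcm6 (-0.41 ± 0.069), Cdt1 (-0.71 ± 0.15), Mcm3 (-0.35 ± 0.082) and Mcm5 (-0.42 ± 0.11) were lower. The comparisons of each cytokine below are made with the untreated libraries of the same time.

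**Figure D1:**
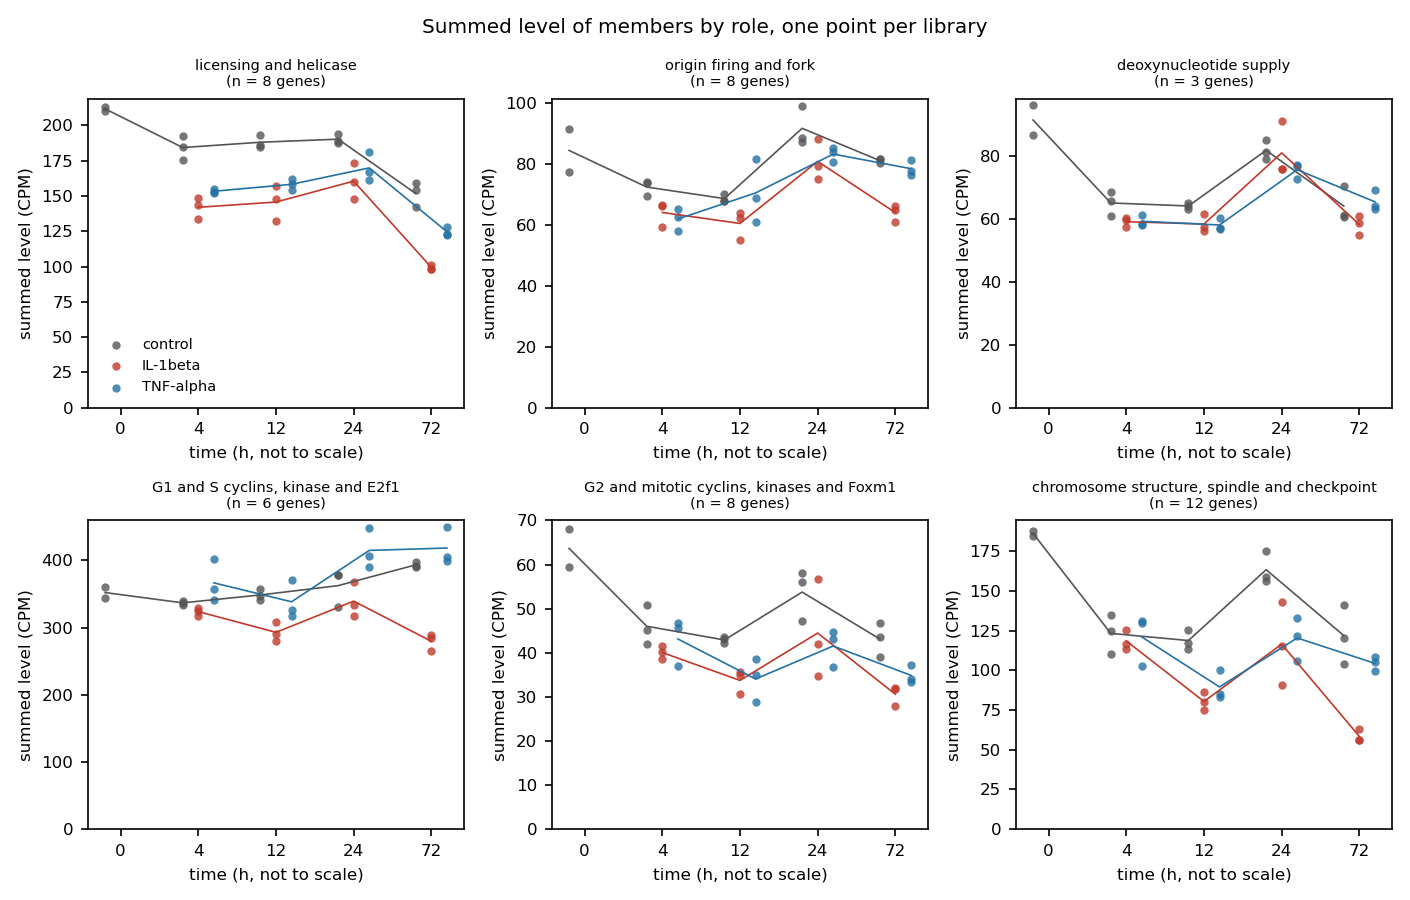
Summed CPM of the members of each role in each library (points) against time in h, evenly spaced and not to scale, groups set slightly side by side, with lines through the group means for control (grey), IL-1beta (red) and TNF-alpha (blue). In the chromosome, spindle and checkpoint panel the 3 IL-1beta libraries at 72 h lie below every other library.

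With IL-1beta, 8 of the 45 members fell at 4 h, 22 at 12 h, 18 at 24 h and 29 at 72 h. At 4 h, 1 member was called higher and 8 lower (17.8%), where 15.5% of all genes were called higher and 17.2% lower, so the share called lower was near that of all genes; with library totals alone 1 member was higher and 15 lower, and the shares of all genes were 10.3% and 25.9%. At 12 h, 2 members were higher and 22 lower (48.9%), where 14.5% of all genes were higher and 15.0% lower. At 24 h, 3 were higher and 18 lower (40.0%), where 17.0% of all genes were higher and 15.6% lower. At 72 h, 1 was higher and 29 lower (64.4%), where 19.3% of all genes were higher and 19.7% lower. The median log2 fold change over the members was -0.19, -0.40, -0.27 and -0.55 at the successive times, against -0.033, -0.016, -0.0063 and 0.0034 over all genes. Fewer dividing cells and less RNA of these genes per cell cannot be told apart in such bulk libraries. Of the 29 calls at 72 h, 25 held whichever library was left out, and the exceptions were Birc5, Cdc45, Kif20a and Rrm1. At 24 h only 9 of the 18 held, and 13 members were called in all without IL-1beta 24 h a. The share of all genes called in that fit is not given here. IL-1beta 24 h b was the highest of its 3 libraries for 38 of 45 members, and IL-1beta 24 h a the lowest for 34. TNF-alpha 24 h b was the highest of its 3 for 30 and TNF-alpha 24 h a the lowest for 28. Untreated 24 h b was the highest of its 3 for 22 and untreated 24 h a the lowest for 25.

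Chondrocyte markers moved with the IL-1beta result at 72 h: their summed level was 15440 to 16770 CPM in those libraries against 75060 to 99680 CPM in the controls, with all 8 still detected. Of the 8 leukocyte markers the sum was 11.74 to 13.55 CPM against 21.54 to 24.89 CPM, mostly Cd68, with Ptprc at no more than 0.541 CPM in any library. The 6 neural markers, mostly Map2, summed to 40.68 to 46.45 CPM against 105.4 to 118.5 CPM. The 7 fibroblast markers were not below the controls, at 22830 to 24250 CPM against 18880 to 23700 CPM. At 24 h the IL-1beta libraries held 28080 to 31220 CPM of the chondrocyte markers against 69350 to 75250 CPM in the controls and 40.73 to 45.11 against 90.77 to 102.2 CPM of the neural markers. Their leukocyte and fibroblast sums were 38.82 to 43.6 against 18.81 to 29.05 CPM and 19010 to 20790 against 22270 to 25820 CPM. At 12 h they held 67690 to 99860 against 108200 to 130200 CPM of the chondrocyte markers, 23.54 to 27.03 against 19.95 to 21.85 CPM of the leukocyte markers and 22870 to 24860 against 28170 to 34490 CPM of the fibroblast markers. The leukocyte sum was thus above the controls at 12 and 24 h and below them at 72 h. The part of these changes in the members' result was not tested.

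Under TNF-alpha fewer members were called. At 4 h, 1 was higher and 4 lower, where 10.9% of all genes were called higher and 10.6% lower (9.05% and 13.3% with library totals alone). This 4 h comparison crosses the division of libraries described above, which cannot be told apart from TNF-alpha in it. Against untreated 12 h libraries in place of untreated 4 h, 10 members were called, counting both directions. That reference differs from TNF-alpha 4 h in time as well, and the share of all genes called against it is not given here. At 12 h, 1 was higher and 14 lower (31.1%), where 14.6% of all genes were higher and 13.8% lower. At 24 h, 1 was higher and 13 lower (28.9%), where 13.2% of all genes were higher and 11.9% lower. At 72 h, 2 were higher and 11 lower (24.4%), where 17.8% of all genes were higher and 18.3% lower; with library totals alone the members split 3 to 7 and all genes 24.3% to 11.9%. The median log2 fold change over the members was -0.15, -0.29, -0.27 and -0.14 at the successive times. Fewer of these calls held with 1 library left out: 5 of 14 at 12 h, 5 of 13 at 24 h and 5 of 11 at 72 h among those lower. Without untreated 12 h a, or without TNF-alpha 12 h c, 8 members were called in all at 12 h, and without untreated 72 h b 8 were called at 72 h. The shares of all genes called in those fits are not given here. Both cytokines were compared with the same untreated libraries at each time, so their comparisons are not independent of each other. At 72 h the TNF-alpha libraries held 34120 to 40740 CPM of the chondrocyte markers, 46.69 to 62.49 CPM of the leukocyte markers, mostly Cd68 and Cd74, and 52.36 to 68.66 CPM of the neural markers. They held 8457 to 9244 CPM of the fibroblast markers against 18880 to 23700 CPM in the controls. At 24 h they held 35.75 to 54.59 against 18.81 to 29.05 CPM of the leukocyte markers, 12110 to 13750 against 22270 to 25820 CPM of the fibroblast markers and 76.7 to 78.82 against 90.77 to 102.2 CPM of the neural markers. At 12 h they held 30.86 to 42.56 against 19.95 to 21.85 CPM of the leukocyte markers, 67830 to 98830 against 108200 to 130200 CPM of the chondrocyte markers and 17310 to 27670 against 28170 to 34490 CPM of the fibroblast markers. The part of these markers in the members' result was not tested.

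**Figure D2:**
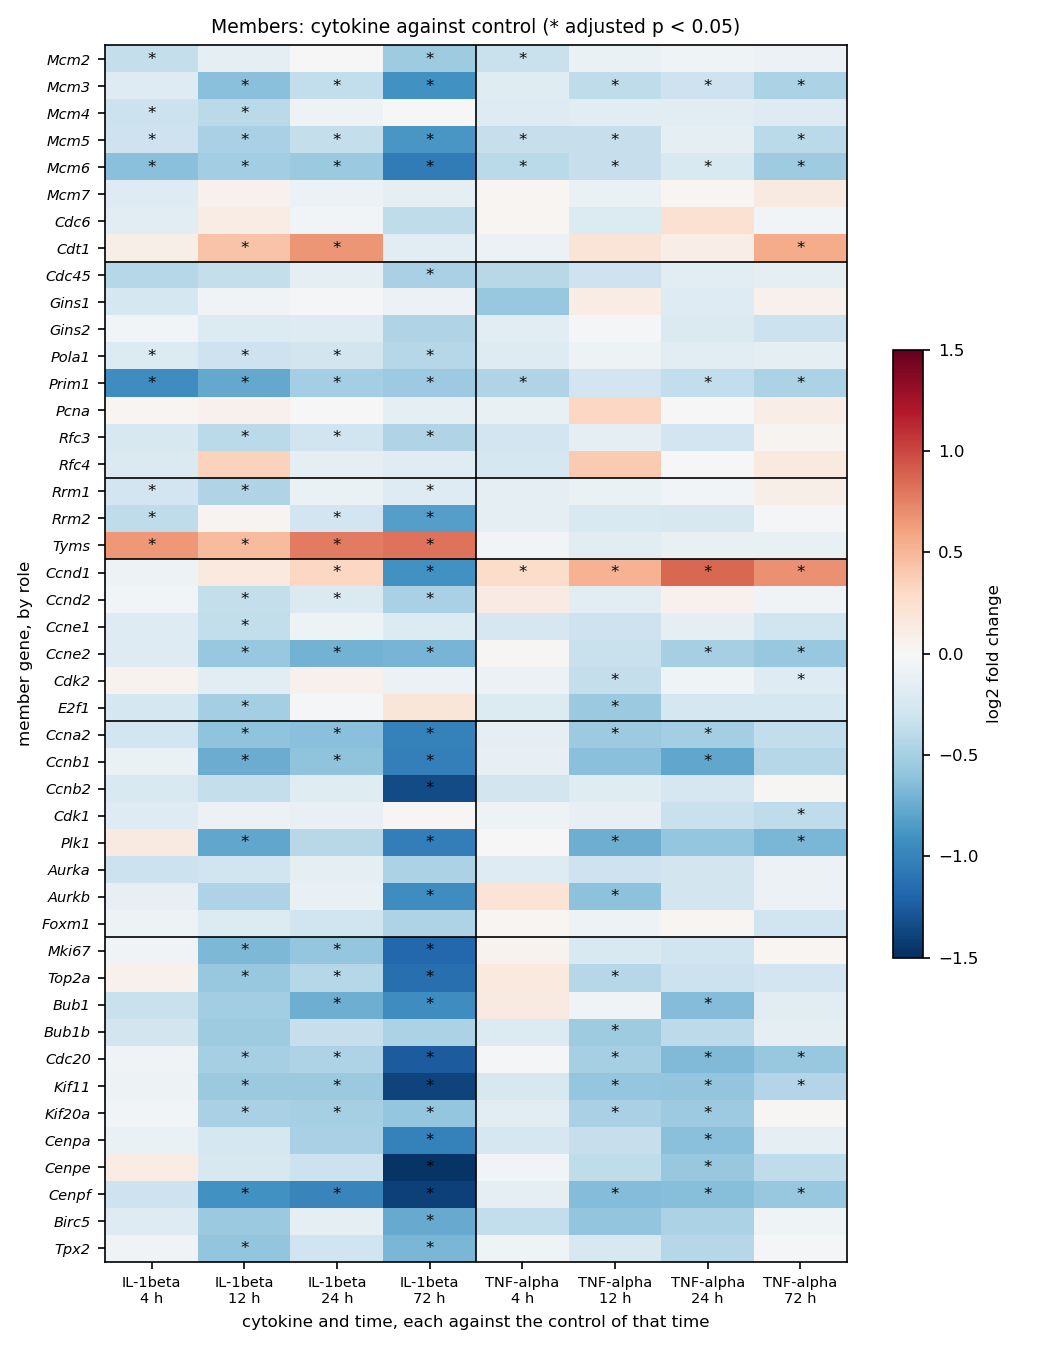
Log2 fold change of each of the 45 members (from top to bottom, grouped by role) in the 8 comparisons of a cytokine with the untreated libraries of the same time (columns), blue for lower and red for higher, with a star where the edgeR adjusted p is under 0.05. At 72 h the IL-1beta column holds 29 members called lower and 1 higher, and the TNF-alpha column 11 lower and 2 higher.

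Among the licensing and helicase genes the MCM subunits did not move together. Mcm6 was lower than control at every time under both cytokines. The TNF-alpha comparison at 4 h crosses the division of libraries described above, for Mcm6 and for the other members below. At 4 h it stood at 69.8, 67.7 and 63.0 CPM in the controls, at 44.3, 44.1 and 40.8 CPM with IL-1beta (log2 fold change -0.63 ± 0.068, edgeR adjusted p = 2.95e-09) and at 49.4, 53.1 and 49.4 CPM with TNF-alpha (log2 fold change -0.40 ± 0.068, edgeR adjusted p = 3.5e-05). At 72 h it stood at 43.0, 51.6 and 50.1 CPM in the controls, at 25.0, 22.6 and 22.2 CPM with IL-1beta (log2 fold change -1.05 ± 0.072, edgeR adjusted p = 1.64e-14) and at 34.0, 33.0 and 32.5 CPM with TNF-alpha (log2 fold change -0.54 ± 0.069, edgeR adjusted p = 8.71e-08). At both times neither treated group overlapped the controls. The changes at 12 and 24 h were -0.52 ± 0.07 and -0.56 ± 0.068 with IL-1beta, and -0.34 ± 0.069 and -0.23 ± 0.068 with TNF-alpha; the last was lost without TNF-alpha 24 h c, and all others held whichever library was left out.

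Mcm3 and Mcm5, which sit beside each other in the helicase ring, fell with both cytokines at 12 and 72 h. Of these, the call of Mcm5 with TNF-alpha at 12 h was lost in some fit with 1 library left out. Mcm5 was also called at 4 h with each (-0.31 ± 0.10 with IL-1beta and -0.35 ± 0.11 with TNF-alpha), but neither call held whichever library was left out. With IL-1beta at 72 h Mcm3 stood at 15.3, 16.0 and 17.02 CPM against 29.0, 31.2 and 31.0 CPM in the controls (log2 fold change -0.91 ± 0.086, edgeR adjusted p = 5.43e-11). With TNF-alpha it stood at 22.0, 22.4 and 21.2 CPM (log2 fold change -0.47 ± 0.082, edgeR adjusted p = 1.73e-05). All 3 groups were apart, with IL-1beta lowest. Mcm5 stood at 6.62, 7.12 and 5.74 CPM with IL-1beta at 72 h and at 10.4, 12.6 and 12.6 CPM in the controls (log2 fold change -0.87 ± 0.12, edgeR adjusted p = 1.08e-07), and at 9.48, 8.87 and 8.499 CPM with TNF-alpha (log2 fold change -0.40 ± 0.11, edgeR adjusted p = 0.00315). Mcm2 fell with IL-1beta at 4 h (-0.36 ± 0.082) and at 72 h (-0.53 ± 0.087), where its 3 libraries read 13.3, 13.3 and 13.0 CPM against 18.4, 19.3 and 19.4 CPM, but was not called at 12 or 24 h, and with TNF-alpha it was called at 4 h alone (-0.34 ± 0.086). Mcm4 was called with IL-1beta at the early times: it was lower at 4 and 12 h (-0.32 ± 0.08 and -0.40 ± 0.086), and at 72 h its libraries read 21.9, 23.6 and 24.9 CPM against 22.99, 24.6 and 22.5 CPM, a log2 fold change of 0.01 ± 0.081 that was not called. The call of Mcm4 at 4 h was lost without untreated 4 h a. Mcm7 was called in none of the 8 comparisons with control.

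Cdt1, which loads the helicase and is destroyed once S phase begins, rose with IL-1beta at 12 and 24 h. With IL-1beta it stood at 11.5, 12.1 and 10.9 CPM at 24 h against 8.07, 6.90 and 6.89 CPM (log2 fold change 0.66 ± 0.14, edgeR adjusted p = 0.000269), with no overlap. At 12 h the change was 0.42 ± 0.15 (edgeR adjusted p = 0.0259), between 0.31 and 0.50 with 1 library left out and lost without untreated 12 h a, untreated 12 h b or IL-1beta 12 h c. At 72 h Cdt1 was called with TNF-alpha instead, at 8.07, 6.49 and 6.96 CPM against 4.84, 5.50 and 4.15 CPM (log2 fold change 0.55 ± 0.15, edgeR adjusted p = 0.00362), while the IL-1beta libraries read 5.06, 3.42 and 4.67 CPM and were not called. Cdc6, the other loading factor, was called in none of the 8 comparisons, with levels between 0.986 and 3.04 CPM.

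**Figure D3:**
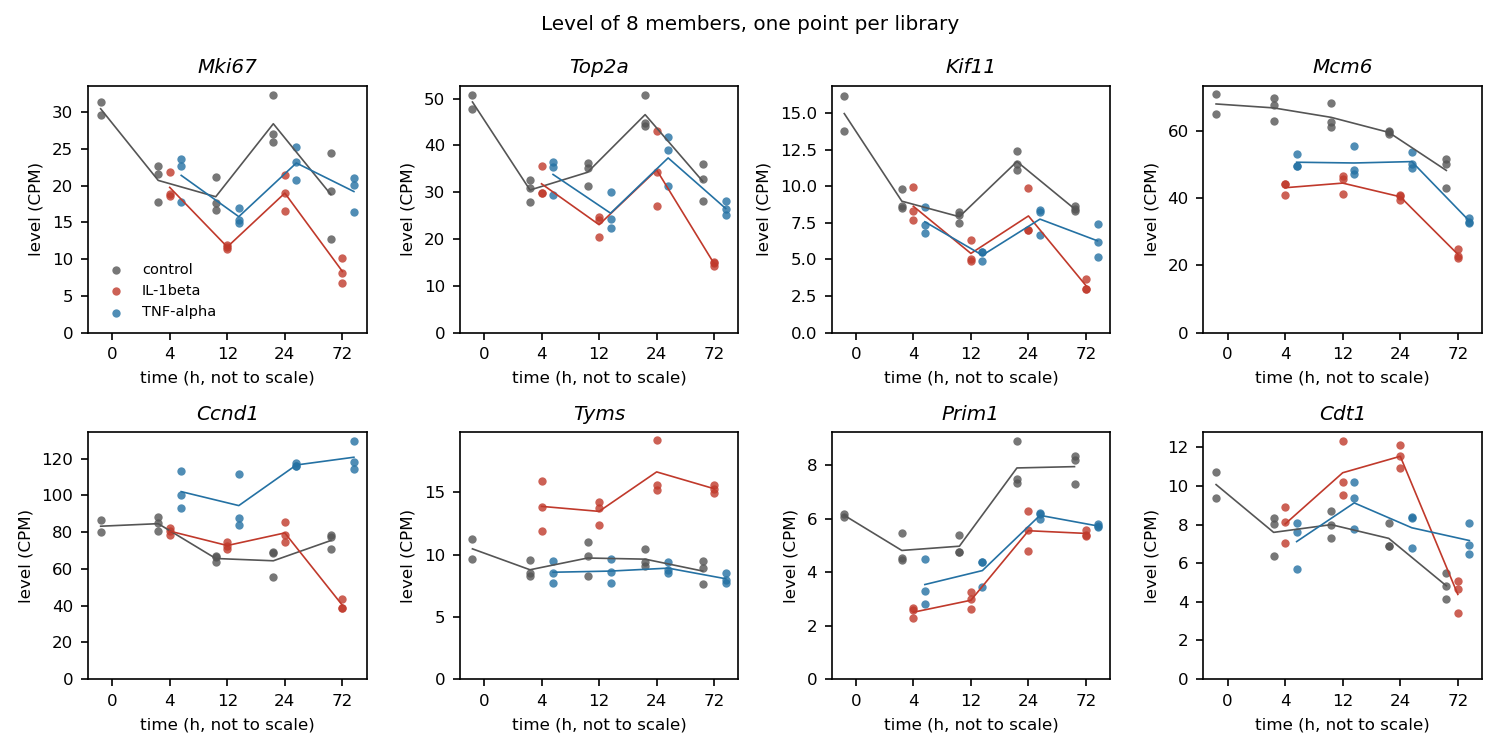
CPM of 8 members in each library (points) against time in h, evenly spaced and not to scale, groups set slightly side by side, with lines through the group means for control (grey), IL-1beta (red) and TNF-alpha (blue). Tyms lies above the other groups with IL-1beta at each time, Ccnd1 lies above with TNF-alpha at 24 and 72 h, and at 72 h the IL-1beta libraries of Mki67, Top2a, Kif11, Mcm6 and Ccnd1 lie below all others of that time.

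At the origin and fork, the genes that start new DNA strands fell with IL-1beta at each time and the clamp was not called. Prim1, which lays the RNA primer, had the largest fall at 4 h with IL-1beta of any member: 2.58, 2.65 and 2.27 CPM against 5.48, 4.45 and 4.51 CPM (log2 fold change -0.93 ± 0.13, edgeR adjusted p = 1.08e-06). At 12 h it stood at 3.24, 2.998 and 2.61 against 5.40, 4.76 and 4.76 CPM (log2 fold change -0.76 ± 0.15, edgeR adjusted p = 0.000144). At 24 and 72 h the changes were -0.51 ± 0.12 and -0.55 ± 0.12, and the IL-1beta libraries lay below the controls at all 4 times. At 72 h these read 5.36, 5.59 and 5.40 CPM. With TNF-alpha Prim1 was lower at 72 h, 5.72, 5.68 and 5.79 against 8.36, 8.18 and 7.30 CPM (log2 fold change -0.48 ± 0.12, edgeR adjusted p = 0.00188). It was also called at 4 and 24 h (-0.45 ± 0.14 and -0.37 ± 0.12), but not with every library left out; those changes lay between -0.66 and -0.32, and between -0.42 and -0.27.

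Pola1, the catalytic subunit of the polymerase that extends those primers, also fell with IL-1beta at each time, by less: -0.31 ± 0.082 at 12 h, -0.27 ± 0.075 at 24 h and -0.43 ± 0.078 at 72 h. At 72 h it stood at 14.9, 15.9 and 14.7 CPM against 19.5, 21.2 and 20.6 CPM (edgeR adjusted p = 2.53e-05). Its call at 4 h (-0.21 ± 0.077, edgeR adjusted p = 0.0377) was lost in 5 of 6 fits with 1 library left out. With TNF-alpha Pola1 was not called at any time. Rfc3, a subunit of the complex that loads the clamp, was lower with IL-1beta at 72 h, 10.8, 10.6 and 10.46 against 14.3, 13.5 and 15.8 CPM (log2 fold change -0.45 ± 0.11, edgeR adjusted p = 0.00168), and its TNF-alpha libraries read 16.1, 14.3 and 14.5 CPM. Pcna, the clamp itself, was called in none of the 8 comparisons: at 72 h it stood at 19.1, 21.0 and 21.6 CPM with IL-1beta (-0.15 ± 0.12), 25.7, 23.6 and 24.0 CPM with TNF-alpha (0.10 ± 0.12) and 22.4, 23.6 and 22.6 CPM in the controls. Gins1 and Gins2, of the helicase activator GINS, and Rfc4 were likewise not called, with changes at 72 h of -0.08 ± 0.28, -0.45 ± 0.19 and -0.18 ± 0.15 with IL-1beta, and Cdc45, the partner of the active helicase, only with IL-1beta at 72 h (-0.48 ± 0.19, edgeR adjusted p = 0.0413), a call lost in 5 of 6 fits with 1 library left out.

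The 3 genes of deoxynucleotide supply went different ways under IL-1beta. Tyms, thymidylate synthase, rose at all 4 times. At 4 h it stood at 11.9, 13.8 and 15.9 CPM with IL-1beta and at 9.57, 8.53 and 8.25 CPM in the controls (log2 fold change 0.65 ± 0.11, edgeR adjusted p = 1.68e-05). At 24 h it stood at 15.2, 19.2 and 15.6 against 9.12, 9.37 and 10.4 CPM (log2 fold change 0.78 ± 0.11, edgeR adjusted p = 6.48e-07). At 72 h it stood at 15.6, 15.0 and 15.3 against 9.49, 8.94 and 7.61 CPM (log2 fold change 0.81 ± 0.11, edgeR adjusted p = 3.95e-07). The groups did not overlap at any time, 12 h included (0.48 ± 0.12, edgeR adjusted p = 0.0021), and each call held whichever library was left out. With TNF-alpha Tyms was not called, with changes from -0.16 to -0.04 on the log2 scale. Of the 8 promoters printed, that of Tyms holds neither an E2F motif nor a CHR, as do 19 of the 35 promoters of members. Those 19 include Cenpe and Cenpf, the members that fell most with IL-1beta at 72 h (-1.47 and -1.40 on the log2 scale).

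Rrm2, whose supply limits ribonucleotide reductase, was lower with IL-1beta at 72 h, 8.43, 11.9 and 10.2 against 16.2, 20.4 and 17.6 CPM (log2 fold change -0.82 ± 0.11, edgeR adjusted p = 2.79e-07). At 12 h its groups were close, 16.8, 18.2 and 17.7 against 17.5, 16.2 and 17.6 CPM (0.04 ± 0.11, not called). It was called lower at 4 and 24 h as well (-0.38 ± 0.11 and -0.29 ± 0.10), but both calls were lost in some fits with 1 library left out, within -0.41 and -0.29 and within -0.43 and -0.21. Rrm1, the constant subunit, was lower at 4 and 12 h (-0.29 ± 0.074 and -0.45 ± 0.079), and at 12 h its libraries read 25.6, 25.0 and 31.3 CPM against 37.2, 37.0 and 37.6 CPM. At 72 h the fall of Rrm1 was -0.19 ± 0.076 (edgeR adjusted p = 0.0471), its groups overlapped, and the call was lost without untreated 72 h b, IL-1beta 72 h a or IL-1beta 72 h b, within -0.25 and -0.11. With TNF-alpha neither Rrm1 nor Rrm2 was called.

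Among the G1 and S regulators, cyclin D1 parted the cytokines. With TNF-alpha Ccnd1 rose at each time, and most at 24 h, 118, 116 and 116 CPM against 69.3, 68.5 and 55.4 CPM (log2 fold change 0.86 ± 0.084, edgeR adjusted p = 5.38e-10). At 72 h it stood at 114, 129.7 and 118 CPM with TNF-alpha against 70.6, 78.3 and 77.4 CPM in the controls (log2 fold change 0.68 ± 0.084, edgeR adjusted p = 3.66e-08). With IL-1beta at 72 h it stood at 38.7, 38.5 and 43.4 CPM (log2 fold change -0.91 ± 0.087, edgeR adjusted p = 9.09e-11), so that the 3 groups were apart with controls in the middle. Earlier changes with TNF-alpha were 0.27 ± 0.084 at 4 h, lost without untreated 4 h c or TNF-alpha 4 h b, and 0.52 ± 0.085 at 12 h. The 4 h value crosses the division of libraries. With IL-1beta it was first higher, at 24 h (0.30 ± 0.085, edgeR adjusted p = 0.00487), a call lost without untreated 24 h c. Ccnd2, the most abundant member, fell with IL-1beta at 12 h (-0.36 ± 0.085), 24 h (-0.22 ± 0.084, called in 2 of 6 fits with 1 library left out) and 72 h: at 72 h it stood at 176, 196 and 189.6 CPM against 269, 262 and 257 CPM (log2 fold change -0.49 ± 0.084, edgeR adjusted p = 1.2e-05), and its TNF-alpha libraries read 241, 276 and 239 CPM (-0.06 ± 0.084, not called).

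Ccne2 was lower with IL-1beta from 12 h and with TNF-alpha from 24 h. At 24 h it stood at 7.82, 10.8 and 7.63 CPM with IL-1beta (log2 fold change -0.71 ± 0.13, edgeR adjusted p = 2.41e-05), 10.04, 10.48 and 9.76 CPM with TNF-alpha (log2 fold change -0.50 ± 0.12, edgeR adjusted p = 0.00259) and 13.4, 15.4 and 14.00 CPM in the controls. At 72 h the changes were -0.70 ± 0.14 and -0.56 ± 0.13. E2f1, the S-phase transcription factor, fell at 12 h with both: 14.1, 14.8 and 18.7 CPM with IL-1beta (log2 fold change -0.51 ± 0.12, edgeR adjusted p = 0.00138) and 16.5, 16.4 and 13.3 CPM with TNF-alpha (log2 fold change -0.56 ± 0.12, edgeR adjusted p = 0.000476), against 21.7, 23.6 and 22.7 CPM. By 72 h its IL-1beta libraries read 22.1, 24.8 and 20.4 CPM against 18.6, 19.9 and 20.8 CPM (0.18 ± 0.12, not called) and its TNF-alpha libraries 15.5, 15.9 and 18.1 CPM (-0.26 ± 0.12, not called). Cdk2 was lower with TNF-alpha at 12 h (18.4, 17.9 and 19.0 against 22.5, 23.9 and 24.4 CPM, log2 fold change -0.35 ± 0.073, edgeR adjusted p = 0.000267), and Ccne1 was called with IL-1beta at 12 h alone (-0.37 ± 0.13), in 2 of 6 fits with 1 library left out.

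Of the G2 and mitotic cyclins and kinases, 5 of 8 fell with IL-1beta at 72 h, where 19.7% of all genes were called lower. Ccnb2, a cyclin B, stood at 0.903, 2.13 and 2.06 CPM against 3.91, 5.74 and 3.59 CPM (log2 fold change -1.35 ± 0.25, edgeR adjusted p = 2.98e-05); it was called at no earlier time, and its TNF-alpha libraries at 72 h read 4.78, 4.71 and 3.96 CPM. Ccna2, cyclin A2, stood at 4.46, 4.16 and 4.29 against 7.38, 9.50 and 9.22 CPM (log2 fold change -1.02 ± 0.16, edgeR adjusted p = 2.98e-06) and was also lower at 12 and 24 h (-0.60 ± 0.16 and -0.62 ± 0.14). Aurkb, the kinase of the chromosomal passenger complex, stood at 1.39, 1.06 and 1.59 against 2.20, 3.10 and 2.41 CPM (log2 fold change -0.94 ± 0.21, edgeR adjusted p = 0.000545). In these 3 genes no IL-1beta library at 72 h reached a control library. Ccnb1 and the Polo kinase Plk1, both low in level, had changes of -1.02 ± 0.26 and -1.04 ± 0.30.

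Cdk1, the kinase that these cyclins activate, was close to its control level with IL-1beta at 72 h. It stood at 14.9, 17.5 and 16.7 CPM with IL-1beta at 72 h and at 15.1, 17.6 and 16.2 CPM in the controls, a log2 fold change of 0.01 ± 0.14 (edgeR adjusted p = 0.953), and was not called with IL-1beta at any time. Its TNF-alpha libraries at 72 h read 12.3, 12.9 and 12.1 CPM (log2 fold change -0.38 ± 0.14, edgeR adjusted p = 0.0336), below the controls, though this call held in 1 of 6 fits with 1 library left out. The printed promoter of Cdk1 holds 1 E2F motif and 2 CHRs. Foxm1 and Aurka, low in all libraries, were not called: with IL-1beta at 72 h Foxm1 stood at 1.14, 2.22 and 2.27 against 2.59, 2.68 and 2.66 CPM (-0.46 ± 0.25) and Aurka at 2.83, 2.13 and 2.91 against 3.81, 2.87 and 4.33 CPM (-0.48 ± 0.24). With TNF-alpha, Ccna2 was lower at 12 and 24 h (-0.55 ± 0.16 and -0.51 ± 0.14), lost without TNF-alpha 12 h c and without untreated 24 h b respectively.

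Of the chromosome, spindle and checkpoint group, 11 of 12 members fell with IL-1beta at 72 h. With IL-1beta 7 of 12 were called lower at 12 h, 7 at 24 h and 11 at 72 h, where 15.0%, 15.6% and 19.7% of all genes were called lower. The median log2 fold change of the group at 72 h was -1.08. Bub1b, a checkpoint kinase, was the exception at 72 h, at 5.30, 4.62 and 3.39 CPM against 4.65, 6.07 and 7.68 CPM (-0.47 ± 0.20, edgeR adjusted p = 0.0556). Cenpe, the kinesin that carries chromosomes to the spindle equator, stood at 2.17, 2.22 and 2.87 CPM with IL-1beta and at 6.60, 7.24 and 6.44 CPM in the controls (log2 fold change -1.47 ± 0.20, edgeR adjusted p = 1.11e-07), the largest fall of any member. Cenpf, a centromere protein of G2 and mitosis, stood at 3.91, 5.22 and 4.16 against 9.88, 14.2 and 11.3 CPM (log2 fold change -1.40 ± 0.18, edgeR adjusted p = 4.38e-08). Kif11 stood at 3.01, 2.96 and 3.64 against 8.41, 8.65 and 8.30 CPM (log2 fold change -1.39 ± 0.15, edgeR adjusted p = 2.02e-09). The groups are widely apart in all 3: the highest IL-1beta library was below the lowest control library. All told, 12 members were fitted at less than 0.5 times their control level with IL-1beta at 72 h, 7 of them from this group. The share of all genes under that level was not counted.

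Mki67 stood at 8.07, 10.1 and 6.82 CPM with IL-1beta at 72 h, at 12.8, 24.4 and 19.3 CPM in the controls (log2 fold change -1.18 ± 0.17, edgeR adjusted p = 4.41e-07) and at 16.5, 21.0 and 20.1 CPM with TNF-alpha (0.03 ± 0.15, not called). The groups did not overlap, though its controls were spread; untreated 72 h b was the highest of its group for 29 of 45 members and untreated 72 h a the lowest for 32. The IL-1beta change of Mki67 lay between -1.40 and -0.93 with 1 library left out. At 12 h the IL-1beta libraries read 11.4, 11.7 and 11.9 CPM against 21.2, 17.6 and 16.7 CPM (log2 fold change -0.67 ± 0.17, edgeR adjusted p = 0.0024). At 24 h they read 16.6, 21.5 and 19.0 against 25.9, 32.3 and 27.1 CPM (log2 fold change -0.58 ± 0.15, edgeR adjusted p = 0.00223), and at 4 h no change was called (-0.05 ± 0.15). Top2a followed the same course, with changes of 0.06 ± 0.12 at 4 h (not called), -0.57 ± 0.13 at 12 h, -0.43 ± 0.12 at 24 h and -1.14 ± 0.13 at 72 h. The 24 h call of Top2a was lost without IL-1beta 24 h a, where all its changes lay between -0.60 and -0.27. At 72 h it read 14.2, 14.9 and 15.0 CPM against 28.2, 36.1 and 32.7 CPM (edgeR adjusted p = 9.32e-09).

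A further 5 members of this group were called lower with IL-1beta at 72 h. Cenpa, the histone variant that marks centromeres, stood at 2.23, 3.42 and 2.70 CPM with IL-1beta at 72 h and at 6.02, 6.49 and 4.46 CPM in the controls (log2 fold change -1.02 ± 0.21, edgeR adjusted p = 0.0002). Bub1 stood at 1.63, 1.66 and 1.54 against 2.35, 3.86 and 3.03 CPM (log2 fold change -0.94 ± 0.25, edgeR adjusted p = 0.00285). Tpx2, a spindle assembly factor that activates Aurora A, stood at 5.66, 6.10 and 5.14 against 7.83, 10.9 and 8.36 CPM (log2 fold change -0.69 ± 0.18, edgeR adjusted p = 0.00253). All 3 calls held whichever library was left out. Those of Birc5, survivin (-0.75 ± 0.26), and of Kif20a, a kinesin of cytokinesis (-0.58 ± 0.16), did not, with ranges between -0.93 and -0.63 and between -0.68 and -0.37.

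With TNF-alpha 6 of 12 in this group were called lower at 12 h, 7 at 24 h and 3 at 72 h, where 13.8%, 11.9% and 18.3% of all genes were. The share at 72 h was near that of all genes. Kif11 was lower at all 3 times. At 12 h it stood at 5.51, 4.86 and 5.49 CPM against 8.22, 7.48 and 8.05 CPM (log2 fold change -0.58 ± 0.15, edgeR adjusted p = 0.00285). At 24 h it stood at 6.67, 8.34 and 8.24 against 11.1, 12.4 and 11.5 CPM (log2 fold change -0.59 ± 0.13, edgeR adjusted p = 0.000792), and at 72 h the change was -0.44 ± 0.14, lost without TNF-alpha 72 h b. Cdc20, which activates the ubiquitin ligase that ends metaphase, was lower at 24 h, 4.93, 7.24 and 5.69 against 9.12, 9.69 and 9.74 CPM (log2 fold change -0.67 ± 0.16, edgeR adjusted p = 0.00231), and at 72 h (-0.56 ± 0.16), the latter lost without untreated 72 h b. With IL-1beta at 72 h Cdc20 stood at 3.61, 4.62 and 3.47 against 7.87, 10.6 and 9.41 CPM (log2 fold change -1.25 ± 0.18, edgeR adjusted p = 4.38e-07).

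Set directly against each other, the cytokines differed in few members until 72 h. IL-1beta was higher than TNF-alpha for 1 member and lower for 3 at 4 h, where 5.71% of all genes were called higher and 6.66% lower (3.45% and 9.25% with library totals alone). This 4 h comparison sets libraries on opposite sides of the division described above against each other, so that division and the cytokine cannot be told apart in it. At 12 h the counts were again 1 and 3, where 4.70% of all genes were higher and 5.88% lower, and at 24 h 2 and 3, where 9.31% were higher and 10.8% lower. At 72 h they were 4 and 26 (57.8%), where 19.4% of all genes were called higher and 20.4% lower; with library totals alone the members split 2 to 29 and all genes 14.2% to 26.5%. The median log2 difference at 72 h was -0.44 over the members and -0.0058 over all genes. Tyms was higher with IL-1beta at all 4 times, from 0.63 ± 0.12 at 12 h to 0.92 ± 0.11 at 72 h, with every call held whichever library was left out. The other 3 calls at 4 h (Ccnd1, Mcm6 and Prim1) were each lost in some fit with 1 library left out: 1 member was called in all without TNF-alpha 4 h b, and 2 without TNF-alpha 4 h a or without any single IL-1beta library at 4 h.

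At 72 h the largest difference by adjusted p was that of Ccnd1, 38.7, 38.5 and 43.4 CPM with IL-1beta against 114, 129.7 and 118 CPM with TNF-alpha (log2 fold change -1.59 ± 0.087, edgeR adjusted p = 5.03e-17). Mki67 followed among the mitotic genes (8.07, 10.1 and 6.82 against 16.5, 21.0 and 20.1 CPM, log2 fold change -1.21 ± 0.16, edgeR adjusted p = 1.72e-07), then Top2a (log2 fold change -0.85 ± 0.13, edgeR adjusted p = 2.21e-06) and Kif11 (log2 fold change -0.95 ± 0.15, edgeR adjusted p = 4.07e-06). Ccnb2 differed by -1.36 ± 0.24 and Rrm2 by -0.79 ± 0.11. In each of these genes all 3 IL-1beta libraries lay below all 3 TNF-alpha libraries. E2f1 went the other way, 22.1, 24.8 and 20.4 CPM with IL-1beta against 15.5, 15.9 and 18.1 CPM with TNF-alpha (log2 fold change 0.45 ± 0.11, edgeR adjusted p = 0.00186). Cdk1 (0.40 ± 0.14) and Mcm4 (0.20 ± 0.08) were also called higher with IL-1beta, in 2 and in 1 of 6 fits with 1 library left out. Prim1, the member that fell most at 4 h, did not differ by the test at 72 h (-0.07 ± 0.12, edgeR adjusted p = 0.699).

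**Figure D4:**
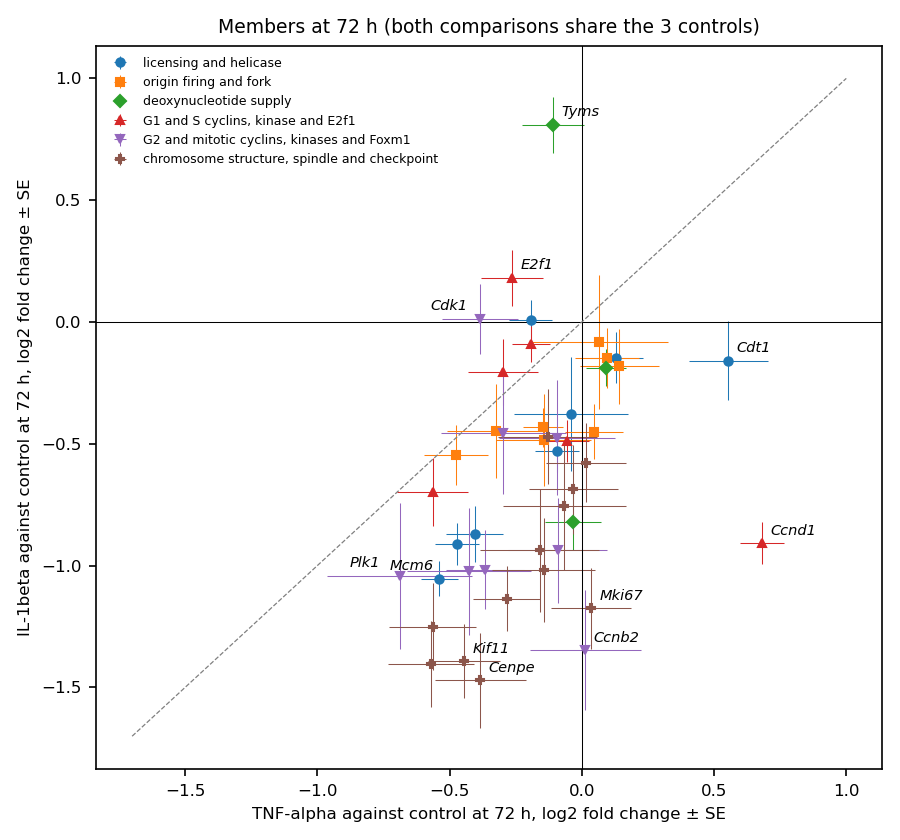
Log2 fold change ± SE of each member against control at 72 h with TNF-alpha (x axis) and with IL-1beta (y axis), with symbols by role and a dashed line where both are equal. Ccnd1 lies at 0.68 and -0.91 and Tyms at -0.11 and 0.81; both axes use the same 3 controls, so the points share their error.

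The change of the IL-1beta effect from 12 to 72 h was tested as an interaction, and it differed for 12 members. The effect at 72 h was higher than at 12 h for 2 members and lower for 10 (22.2%), where 14.1% of all genes were called higher and 14.1% lower. Ccnd1 moved most by adjusted p, from 0.15 at 12 h to -0.91 at 72 h (difference -1.06 ± 0.12, edgeR adjusted p = 1.79e-08). Rrm2 went from 0.04 to -0.82 (difference -0.86 ± 0.16, edgeR adjusted p = 7.02e-05), and Cenpe from -0.24 to -1.47 (difference -1.23 ± 0.27, edgeR adjusted p = 0.00057). E2f1 went upward, from -0.51 to 0.18 (difference 0.69 ± 0.17, edgeR adjusted p = 0.00172), as did Mcm4 (0.41 ± 0.12), whose call was lost without IL-1beta 12 h a. The same interaction for TNF-alpha called 0 members by edgeR's quasi-likelihood test and 0 by DESeq2, and 1 (Kif20a, named after its value was seen) at an unadjusted p under 0.05, where 3.64% of all genes were called higher and 4.90% lower (5.82% and 3.22% with library totals alone). Without untreated 72 h b, 1 member was called. Whether the IL-1beta and the TNF-alpha interactions differ from each other was not tested.

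Other genes of the same pathways were counted in lists drawn up with earlier results of these data known. At 72 h, 19.7% of all genes were called lower and 19.3% higher with IL-1beta, and 18.3% and 17.8% with TNF-alpha. Of 44 other mitosis genes, 34 were lower with IL-1beta at 72 h and 10 were not called, with a median log2 fold change of -0.73; with TNF-alpha 9 were lower and 1 higher, with a median of -0.14. Of 35 other replication genes, 18 were lower with IL-1beta at 72 h and 17 not called, with a median of -0.30; with TNF-alpha 7 were lower and 3 higher, shares near or below those of all genes. The mitosis genes of smallest adjusted p under IL-1beta were Smc2, a condensin subunit (log2 fold change -0.71 ± 0.086, edgeR adjusted p = 1.54e-08), Knl1, a kinetochore scaffold (log2 fold change -1.29 ± 0.16, edgeR adjusted p = 3.16e-08), and Anln, anillin of the cleavage furrow (log2 fold change -1.18 ± 0.15, edgeR adjusted p = 3.42e-08). The replication genes were Rpa1 (log2 fold change -0.56 ± 0.065, edgeR adjusted p = 8.79e-09) and Rpa2 (log2 fold change -0.74 ± 0.10, edgeR adjusted p = 2.86e-07), which coat single-stranded DNA, and the methyltransferase Dnmt1 (log2 fold change -0.36 ± 0.053, edgeR adjusted p = 8.23e-07). At 72 h, IL-1beta was lower than TNF-alpha for 29 of the 44 mitosis genes and 13 of the 35 replication genes, and higher for 1 of each. In that comparison 20.4% of all genes were called lower and 19.4% higher. With IL-1beta the mitosis genes called lower numbered 9 at 4 h, 17 at 12 h and 13 at 24 h, and the replication genes 15, 14 and 4, where 17.2%, 15.0% and 15.6% of all genes were called lower. With TNF-alpha they numbered 5, 17 and 16, and 13, 9 and 3, where 10.6%, 13.8% and 11.9% of all genes were. The mitosis genes at 4 h with either cytokine, and the replication genes at 24 h with either, were near or below those shares.

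Of 20 E2F, retinoblastoma and MuvB genes tested, 6 were lower and 1 higher with IL-1beta at 72 h, and 3 lower and 4 higher with TNF-alpha. The TNF-alpha counts are near the shares over all genes, 18.3% lower and 17.8% higher. With IL-1beta those shares were 19.7% and 19.3%. Rbl1, the p107 pocket protein, stood at 15.2 against 51.9 CPM with IL-1beta at 72 h (log2 fold change -1.78 ± 0.071, edgeR adjusted p = 7.46e-21), and the repressor E2f8 at 0.246 against 2.29 CPM (log2 fold change -3.13 ± 0.28, edgeR adjusted p = 2.23e-11). Mybl1, a Myb family activator, fell with IL-1beta (log2 fold change -0.88 ± 0.094, edgeR adjusted p = 1.09e-09) and rose with TNF-alpha (log2 fold change 0.94 ± 0.084, edgeR adjusted p = 3.62e-11). Of 12 G1 kinases and CDK inhibitors, 5 were lower and 3 higher with IL-1beta at 72 h, and 3 lower and 4 higher with TNF-alpha, against the same shares of all genes. The inhibitor Cdkn1c (p57) stood at 63.1 against 293 CPM in the mean with IL-1beta at 72 h (log2 fold change -2.21 ± 0.12, edgeR adjusted p = 8.39e-17). Cdkn1b (p27) was lower with each cytokine at 12 h (log2 fold change -0.79 ± 0.072, edgeR adjusted p = 5.12e-11 with IL-1beta; log2 fold change -0.63 ± 0.07, edgeR adjusted p = 8.47e-09 with TNF-alpha). Cdkn2b (p15), which inhibits the kinases of cyclin D, was higher at that time with each (log2 fold change 0.84 ± 0.081, edgeR adjusted p = 2.54e-10 with IL-1beta; log2 fold change 0.82 ± 0.08, edgeR adjusted p = 4.09e-10 with TNF-alpha). Cdkn1a (p21) was higher at 12 h with IL-1beta (log2 fold change 0.79 ± 0.069, edgeR adjusted p = 2.35e-11) and at 72 h with TNF-alpha (log2 fold change 0.66 ± 0.069, edgeR adjusted p = 1.12e-09). These genes were called at 4 h too. Cdkn1b was lower (-0.56 with IL-1beta and -0.53 with TNF-alpha) and Cdkn2b higher (0.44 and 0.32). Cdkn1a was higher at 4 h with TNF-alpha (0.31) and not called with IL-1beta (0.084). The TNF-alpha values at 4 h cross the division of libraries.

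Followed through all 17 comparisons, Ccnd1 was called in 11, Top2a in 8, Mki67, Mcm2 and Ccnd2 in 6 each, E2f1 in 4 and Pcna in 1. Ccnd1 was lower with IL-1beta than with TNF-alpha already at 4, 12 and 24 h (-0.34 ± 0.085, -0.37 ± 0.086 and -0.55 ± 0.083), of which the value at 4 h was lost in some fits with 1 library left out. Ccnd2 was lower with IL-1beta than with TNF-alpha at 24 and 72 h (-0.28 ± 0.084 and -0.43 ± 0.084), and higher in untreated tissue at 72 than at 12 h (0.27 ± 0.084). Mcm2 differed between the cytokines at 72 h (-0.44 ± 0.086) and fell in untreated tissue from 0 to 4 h (-0.40 ± 0.091). Top2a was lower with TNF-alpha at 12 h (-0.42 ± 0.13), a call that did not hold whichever library was left out. The single call of Pcna was its rise in untreated tissue from 12 to 24 h (0.44 ± 0.12), which did not hold either.

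Counted over the 4 times, Mcm5, Mcm6, Pola1 and Prim1 were called lower with IL-1beta at each time and Tyms higher at each. The calls of Mcm5 and Pola1 at 4 h, and of Mcm5 at 24 h, were lost in some fit with 1 library left out. With TNF-alpha, Mcm6 was lower and Ccnd1 higher at each time, the 4 h comparison crossing the division of libraries. The calls of Ccnd1 at 4 h and of Mcm6 at 24 h were lost in some fit with 1 library left out. A further 14 members were lower with IL-1beta at 3 times, among them Mki67, Top2a, Kif11, Cdc20 and Cenpf. The share of all genes called at 3 or 4 times, or in none of the comparisons, was not counted. Called in none of the 8 comparisons with control were 8 members, Aurka, Cdc6, Foxm1, Gins1, Gins2, Mcm7, Pcna and Rfc4. These include the lowest members per kilobase, Cdc6 and Foxm1, and also Pcna, the fourth highest.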

How the data were processed

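Total RNA of frozen tissue was made into libraries with the Illumina Ribo-Zero Gold kit, per the labels' protocols, and the authors deposited a single table of read counts per gene for the 39 mRNA libraries of the series. Trimmomatic, cutadapt, STAR, featureCounts and build mm10 are named in the submitters' processing notes, with no versions; the strand setting is not stated. The deposited counts were used as they stand, after 2199 lines with no gene name and the untreated 0 h b column were left out. Those nameless lines are short by the cells of IL-1beta 72 h b and c, whose other cells are whole counts like the rest. Gene lengths came from the same deposited table. The 45 members and the other gene lists were chosen with earlier results of these data known.

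Genes passing edgeR's filterByExpr (18857, holding 99.905% of counts) were fitted in edgeR 4.0.16 (R 4.3.3, limma 3.58.1) with TMM scaling (factors 0.864 to 1.12) over 38 libraries in 13 groups, so that all groups share 1 estimate of spread (common biological coefficient of variation 8.26%). The quasi-likelihood F test gave 17 comparisons, each adjusted by Benjamini-Hochberg over all genes, with 0.05 as threshold; the SE is the log2 fold change divided by the square root of F. The procedure was also run on simulated counts, with the same spread for every gene and changes planted in a single group. That setting is simpler than these libraries, so the run does not measure error rates here. No 2 libraries of a group agreed within sampling noise (lowest chi-square per degree of freedom 3.387).

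All members may be named. In each comparison and role, up to 3 called members of smallest adjusted p whose libraries do not overlap are given with values, 8 members are followed throughout, and from each other list up to 3 called genes of smallest adjusted p are named. Alternatives were other scaling (median-of-ratios factors, library totals alone), no filter, a replicate block, all 39 libraries, only the compared groups, DESeq2 1.42.0, untreated 12 h as reference for TNF-alpha at 4 h, and each library left out. Promoters and figures were handled in Python 3.11.15 with pandas 2.3.3, NumPy 2.4.6 and matplotlib 3.10.9.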

Additional observations from a re-analysis of the deposited data

Results flagged for a closer look

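The IL-1beta effect differed between 12 and 72 h for 12 members by the interaction term of edgeR's quasi-likelihood test, each value being the log2 effect at 72 h minus that at 12 h. Of the 45 members 4.44% were called higher and 22.2% lower, where 14.1% of all genes were called higher and 14.1% lower. Only the share called lower was thus above that of all genes. It was lower at 72 h for the G1 cyclin Ccnd1 by -1.06, for Rrm2 by -0.86, for the helicase subunits Mcm6 by -0.53 and Mcm2 by -0.39, and for the loading factor Cdt1 by -0.58. Among mitotic members it was lower for Cenpe by -1.23, Kif11 by -0.84, Top2a by -0.57, Cdc20 by -0.75 and Ccnb2 by -0.99. It was higher at 72 h for E2f1 by 0.69 and Mcm4 by 0.41. Whichever library was left out, 7 of the 12 were still called, and Ccnb2, Cdc20, Cdt1, Mcm4 and Top2a were not. The untreated controls of both times enter each value.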

How the results depend on the processing

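Over the 17 comparisons, 233 member calls were made, and 0 changed direction under any alternative. The call was kept for 229 with median-of-ratios factors, 219 with library totals alone, 204 with no filter, 231 with the replicate block, 213 with only the compared groups, 221 with DESeq2, 129 with all 39 libraries and 5 of 5 with untreated 12 h as reference for TNF-alpha at 4 h. The counts of members called that moved by over 1.5 times were as follows. With library totals alone 16 were called for IL-1beta at 4 h and 23 for untreated 24 against 12 h. For IL-1beta against TNF-alpha at 4 h, 2 were called with no filter and 2 with only the compared groups, which also gave 2 at 12 h. Untreated 12 h as reference gave 10 for TNF-alpha at 4 h. With all 39 libraries, which adds the column that does not follow the gene names, IL-1beta against control gave 4, 13 and 12 at 4, 12 and 24 h and TNF-alpha 0, 5, 7 and 8 at 4, 12, 24 and 72 h. IL-1beta against TNF-alpha then gave 1, 1 and 2 at 4, 12 and 24 h, untreated 4 against 0 h 9, 24 against 12 h 8, 72 against 12 h 4, and the IL-1beta interaction 5.

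With each library left out in turn, 1191 of 1449 member results kept their call. The shares of all genes called in those fits are not given here. Counts called ranged for IL-1beta against control from 6 to 8, 17 to 21, 13 to 24 and 27 to 30 at the successive times, and for TNF-alpha from 4 to 5, 8 to 14, 10 to 16 and 8 to 16. For IL-1beta against TNF-alpha they ranged from 1 to 3, 3 to 5, 5 to 6 and 27 to 30. For untreated tissue they ranged from 7 to 21 (4 against 0 h), 11 to 14 (24 against 12 h) and 9 to 11 (72 against 12 h), and for the interactions from 9 to 14 (IL-1beta) and 0 to 1 (TNF-alpha).

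A replicate block by the letters a, b and c changed 2 of the 233 calls. Deviations from the group means of libraries sharing a letter correlated between -0.13 and 0.13 (median -0.00305, 222 pairs, 6 over 0.1). Those of other letters correlated between -0.143 and 0.131 (444 pairs, 14 over 0.1). These pairs pool all genes and all times, so whether a letter pairs libraries within a time was not tested. At 24 h, library b was the highest of its 3 for 38, 30 and 22 members with IL-1beta, TNF-alpha and no cytokine. Members of low level, such as Cdc6, Foxm1 and Ccnb1, have wide errors, and a change in them that was not called may have been below detection at this depth.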
